A study of Rattus norvegicus with 12 samples.

Results

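The CCN genes and the genes of the YAP-TEAD pathway were followed in rat heart muscle cell cultures exposed to DEHP. DEHP, di(2-ethylhexyl) phthalate, is the plasticizer that softens polyvinyl chloride and leaches from medical tubing and blood bags. The set holds 10 genes, Ccn1 to Ccn5, Lats2, Amotl2, F3, Yap1 and Tead1. These genes were picked with earlier results of these data known, so their share of falls beside that of all genes is a description. A probe set was taken when the platform annotation gave it exactly 1 gene symbol and that symbol was one of these names or its older synonym. Each gene had 1 such probe set, so 10 of the 27342 probe sets on the array belong to the set, or 10 of 14324 named genes. The 6 DEHP cultures received 50 µg/mL DEHP in 0.1% DMSO for 3 days. The 6 control cultures received the vehicle alone, 0.1% DMSO, over the same 3 days. The labels call all the cells cardiomyocytes, of Sprague-Dawley pups aged 2 days from 1 litter. The cells were freed from the heart by enzymes and grown as monolayers on coverslips for 3 days before exposure. No step that removes other heart cells is named in the labels.

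CCN proteins are secreted into the matrix around cells, where they bind integrins, heparan sulphate proteoglycans and growth factors. The older names of the genes are Cyr61, Ctgf, Nov, Wisp1 and Wisp2, in the order Ccn1 to Ccn5, and Ccn2, connective tissue growth factor, is known for its induction in fibrotic and overloaded hearts. In the Hippo pathway, LATS kinases phosphorylate the coactivator YAP and hold it out of the nucleus. When it is not phosphorylated, YAP binds TEAD proteins on DNA and switches on genes that include Ccn1, Ccn2, Amotl2 and Lats2. Amotl2 and Lats2 restrain YAP in turn. YAP is controlled mainly through its phosphorylation and location, which arrays of RNA do not measure.

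Each deposited value is a ratio to the same probe set's median over the 12 arrays, and log2 of that ratio is used throughout, so 0 is the middle of the 12 values. The values show how arrays differ and not how strongly a gene was expressed. Whether cardiomyocyte markers were high in these cultures therefore cannot be read from them. Where the groups do not overlap, the highest DEHP value and the lowest control value lie equally far from 0 by construction. The array DEHP replicate 6 and the array control replicate 5 stood apart from the rest, with SDs of log2 ratios over all probe sets of 0.27 and 0.37, against 0.15 to 0.19 for the other arrays. The CCN genes that lay far lower on DEHP replicate 6 are given with and without it. The labels call the cultures of a group biological replicates, and with 1 litter the p-values measure the spread between cultures and arrays only.

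Promoter sequence from RefSeq (rat assembly GRCr8) was at hand for 4 of the 10 genes, Ccn1, Ccn2, Amotl2 and Yap1. The 250 bases before each gene start are shown, because 3 of these genes are textbook YAP-TEAD targets that each fell under DEHP. They fell by different amounts. The other gene, Yap1, encodes their coactivator and did not pass the test. Capitals mark the core letters of a TEAD site, GGAATG on the gene's strand or its complement CATTCC. The windows lie at chr1:22624615-22624864 (minus strand, Ccn2), chr2:237225690-237225939 (minus strand, Ccn1), chr8:112182376-112182625 (plus strand, Amotl2) and chr8:13451438-13451687 (minus strand, Yap1), and each is written 5′ to 3′ along its gene.
Ccn2: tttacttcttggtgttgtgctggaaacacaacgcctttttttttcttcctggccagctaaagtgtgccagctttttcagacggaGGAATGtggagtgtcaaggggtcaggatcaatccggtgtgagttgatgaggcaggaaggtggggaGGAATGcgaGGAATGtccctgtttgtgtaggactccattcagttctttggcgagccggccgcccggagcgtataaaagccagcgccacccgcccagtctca
Ccn1: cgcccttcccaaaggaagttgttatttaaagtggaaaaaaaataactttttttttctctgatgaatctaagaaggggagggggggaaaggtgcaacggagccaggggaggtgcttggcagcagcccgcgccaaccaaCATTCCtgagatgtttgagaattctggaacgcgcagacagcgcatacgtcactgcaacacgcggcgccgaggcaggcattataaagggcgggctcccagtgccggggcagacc
Amotl2: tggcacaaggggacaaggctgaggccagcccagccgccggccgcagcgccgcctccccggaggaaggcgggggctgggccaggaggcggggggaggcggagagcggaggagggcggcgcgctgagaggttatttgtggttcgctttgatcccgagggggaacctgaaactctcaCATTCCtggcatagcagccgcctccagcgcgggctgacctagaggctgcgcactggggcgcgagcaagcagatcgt
Yap1: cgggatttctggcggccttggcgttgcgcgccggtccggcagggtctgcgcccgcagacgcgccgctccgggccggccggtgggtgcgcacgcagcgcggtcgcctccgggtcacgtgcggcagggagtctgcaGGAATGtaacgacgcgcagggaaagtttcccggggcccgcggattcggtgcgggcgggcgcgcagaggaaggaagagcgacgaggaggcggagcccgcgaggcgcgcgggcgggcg

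The Ccn2 promoter held the TEAD letters 3 times, all on the gene's strand, starting 166, 101 and 92 bases before the gene start. Ccn1 held 1 copy starting 113 bases before the start and Amotl2 held 1 starting 76 bases before it, both on the opposite strand. Yap1 held 1 copy on its own strand, starting 116 bases before the start. Of all 33469 promoters of the same length, 12.1% held at least 1 copy on either strand and 0.0807%, or 27 promoters, held at least 3. Neither the AP-1 letters TGANTCA nor a CArG box, the site of serum response factor, was found in any of the 4 windows. Over all promoters 6.34% held the AP-1 letters and 1.5%, or 501 promoters, held a CArG box. The copies overlapped no match of another motif searched. A match is a description of the letters and does not show that a protein binds there.

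**Figure D1:**
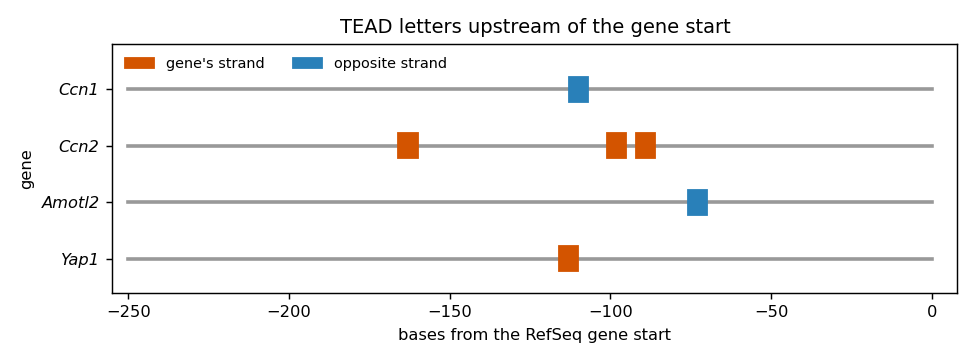
TEAD letters (boxes) in the 250 bases before the RefSeq gene start (GRCr8) of Ccn1, Ccn2, Amotl2 and Yap1, by distance from the start in bases; orange boxes are on the gene's strand and blue boxes on the opposite strand. Ccn2 has 3 boxes, starting 166, 101 and 92 bases before the start, and the other genes have 1 each.

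Under DEHP, 8 of the 10 genes fell and 0 rose. These were all 5 CCN genes, the kinase Lats2, the angiomotin Amotl2 and tissue factor, F3. The members' median log2 fold was −0.76, against −0.02 over all genes. Yap1 and Tead1, which encode the coactivator and its DNA-binding partner, did not pass. Passing means an adjusted p under 0.05 by limma over all 27342 probe sets, which 24.6% of all genes met in either direction and 10.2% met as lower. The 8 genes that fell are also those whose 6 DEHP values all lay below all 6 control values, as was so of 6.88% of all genes, while in either direction the groups lay apart in 16.9%. At least 2-fold falls were seen in 3 of the 10 genes, Ccn2, Ccn3 and Ccn5, and in 0.901% of all genes.

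Ccn3, a CCN protein known for restraining cell growth, had the largest fall of the set. Its log2 ratios ran from −1.05 to −0.77 under DEHP (median −0.80), against 0.77 to 0.96 in controls (median 0.81). DEHP replicates 2 and 6 were lowest, at −1.05 and −0.97, against −0.81 to −0.77 on the other DEHP arrays. Between the nearest values of the groups lay 1.55 log2 units. Ccn3 was 3.23-fold lower (log2 fold −1.69 ± 0.06 SE, adjusted p = 2.0e-09, n = 6 each), which made it the 21st most lowered of 14324 genes.

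Ccn2 had log2 ratios from −1.35 to −0.59 under DEHP (median −0.66), against 0.59 to 0.74 in controls (median 0.69). The groups lay apart, and DEHP replicate 6 stood alone at −1.35 while the other DEHP arrays ran from −0.72 to −0.59. The gene was 2.74-fold lower (log2 fold −1.45 ± 0.11, adjusted p = 1.5e-06), and 2.52-fold lower without DEHP replicate 6 (log2 fold −1.34 ± 0.04, n = 5 and 6). It ranked 44th among the most lowered genes.

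Ccn5, the family member that lacks the C-terminal cystine knot module, also lay lowest on DEHP replicate 6. Its values ran from −1.46 to −0.41 under DEHP (median −0.54), against 0.41 to 0.67 in controls (median 0.56). The groups did not overlap, and the other 5 DEHP arrays lay between −0.60 and −0.41. Ccn5 was 2.34-fold lower (log2 fold −1.23 ± 0.15, adjusted p = 7.7e-05), and 2.10-fold lower without that array (log2 fold −1.07 ± 0.05, n = 5 and 6).

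Ccn4, first described as a Wnt-induced protein, fell less. Its log2 ratios ran from −1.02 to −0.20 under DEHP (median −0.40), against 0.20 to 0.38 in controls (median 0.32), with DEHP replicate 6 lowest at −1.02. Ccn4 was 1.70-fold lower (log2 fold −0.76 ± 0.11, adjusted p = 0.00040), and 1.57-fold lower without DEHP replicate 6 (log2 fold −0.65 ± 0.06). Ccn1, the cysteine-rich angiogenic inducer, had the smallest fall of the family and the tightest values. These ran from −0.25 to −0.16 under DEHP (median −0.18), against 0.16 to 0.31 in controls (median 0.24). Ccn1 was 1.34-fold lower (log2 fold −0.43 ± 0.03, adjusted p = 2.3e-06), and DEHP replicate 6, at −0.21, lay among the other DEHP arrays.

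**Figure D2:**
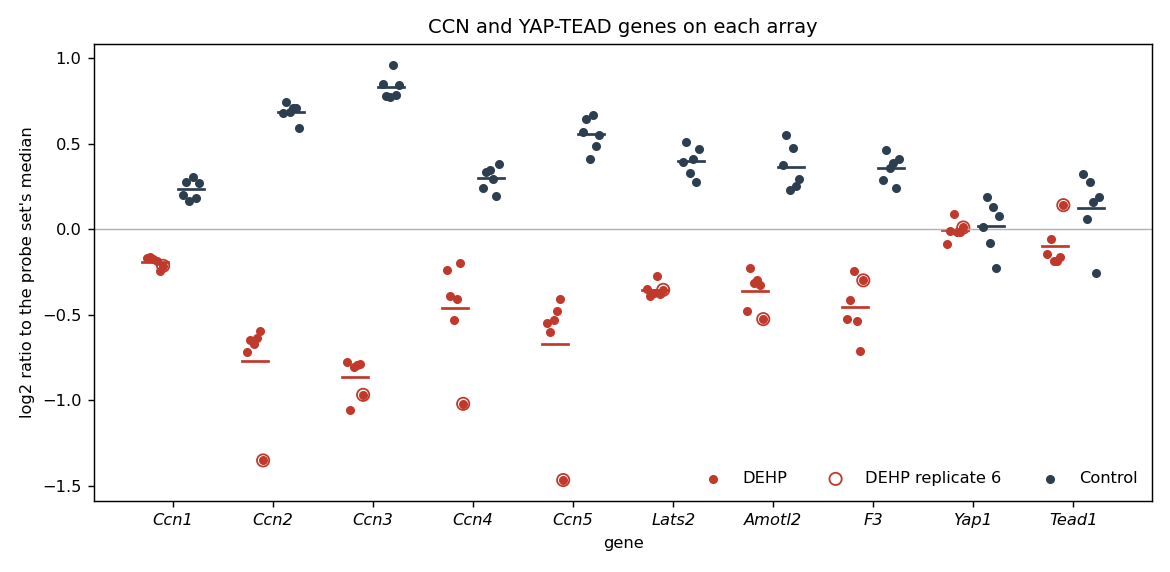
Log2 ratio of each gene to its probe set's median, by gene (horizontal axis); points are arrays, red DEHP (n = 6) left of dark control (n = 6), short lines are group means, and rings mark DEHP replicate 6. The groups lie apart in 8 genes and overlap in Yap1 and Tead1; the ringed array is lowest in Ccn2 (−1.35), Ccn4 (−1.02) and Ccn5 (−1.46) but not in Ccn1 or Ccn3.

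The CCN genes differed among themselves in how far they fell. In 9 of the 10 CCN pairs the difference between the 2 genes' log2 folds passed an exact permutation test of the 12 arrays (two-sided, Benjamini-Hochberg over 20 pairs, 10 of CCN genes and 10 of the other members, adjusted p at most 0.0202). Ccn3 fell further than Ccn4 and Ccn5, with differences in log2 fold of −0.93 ± 0.11 for Ccn3 minus Ccn4 and −0.47 ± 0.15 for Ccn3 minus Ccn5 (SE, n = 6 each). Ccn2 fell further than Ccn5 (Ccn2 minus Ccn5 −0.23 ± 0.06, exact permutation p = 0.0108, adjusted p = 0.0155) and than Ccn4 (Ccn2 minus Ccn4 −0.69 ± 0.07). Ccn1 fell less than each of the others, from 0.34 ± 0.12 for Ccn1 minus Ccn4 to 1.27 ± 0.06 for Ccn1 minus Ccn3. Ccn2 and Ccn3, neighbours at the top of the order, were the pair that did not pass (difference 0.24 ± 0.11, exact permutation p = 0.061, adjusted p = 0.076). Without DEHP replicate 6 that difference was 0.34 ± 0.07, with an adjusted exact permutation p of 0.0039. How far a fold on one probe set can be set beside a fold on another also depends on the probes, which was not tested.

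Lats2, a kinase that phosphorylates YAP, and Amotl2, an angiomotin that holds YAP at cell junctions and on actin, both fell. Lats2 had log2 ratios from −0.39 to −0.27 under DEHP (median −0.36), against 0.27 to 0.51 in controls (median 0.40). Its 6 DEHP values were the most alike of the set after Ccn1, and 0.55 log2 units separated the groups. Lats2 was 1.68-fold lower (log2 fold −0.75 ± 0.04, adjusted p = 1.6e-07). Amotl2 had values from −0.53 to −0.23 under DEHP (median −0.32), against 0.23 to 0.55 in controls (median 0.33), and was 1.65-fold lower (log2 fold −0.72 ± 0.07, adjusted p = 7.0e-06). DEHP replicate 6 was the lowest Amotl2 value but close to DEHP replicate 1, at −0.53 and −0.48.

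F3 encodes tissue factor, the membrane receptor that starts blood clotting by binding factor VII, and it belongs to the target list of YAP described in human cells. Its log2 ratios ran from −0.71 to −0.24 under DEHP (median −0.47), against 0.24 to 0.46 in controls (median 0.37). The groups did not overlap, and the lowest value was that of DEHP replicate 5. F3 was 1.76-fold lower (log2 fold −0.81 ± 0.07, adjusted p = 5.7e-06).

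Yap1 did not pass. Its values ran from −0.09 to 0.09 under DEHP (median −0.01), within the control range of −0.22 to 0.19 (median 0.04). The log2 fold was −0.02 ± 0.06 (adjusted p = 0.85), with a 95% interval of −0.16 to 0.12. Tead1 did not pass either. Its values ran from −0.19 to 0.14 under DEHP (median −0.15), against −0.26 to 0.32 in controls (median 0.17). The overlap came from the arrays that stood apart, since DEHP replicate 6 was the highest DEHP value and control replicate 5 the lowest control value. The log2 fold of Tead1 was −0.22 ± 0.09 (adjusted p = 0.13). Without control replicate 5 it was −0.30 and passed (adjusted p = 0.0059), and without both arrays it was −0.35 (adjusted p = 0.00037).

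Among these 5 pathway genes, 6 of 10 pairs passed the exact permutation test of the difference. Each was a pair of a gene that fell with Yap1 or Tead1, and their adjusted exact permutation p was 0.0036, at the smallest p that the arrays allow. The difference in log2 fold was −0.73 ± 0.04 for Lats2 minus Yap1 and −0.53 ± 0.10 for Lats2 minus Tead1. The 3 genes that fell did not differ detectably from each other, with differences of −0.03 ± 0.06 for Lats2 minus Amotl2, 0.06 ± 0.08 for Lats2 minus F3 and 0.09 ± 0.10 for Amotl2 minus F3 (adjusted exact permutation p from 0.43 to 0.68). These small differences moved with single arrays. Amotl2 minus F3 was 0.15 without DEHP replicate 6 and 0.03 without DEHP replicate 5, and Lats2 minus F3 was 0.11 without DEHP replicate 3 and 0.02 without DEHP replicate 5. Yap1 minus Tead1 gave 0.20 ± 0.10 (adjusted exact permutation p = 0.076), and 0.25 ± 0.09 with an adjusted p of 0.031 in the same exact permutation test without DEHP replicate 6.

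**Figure D3:**
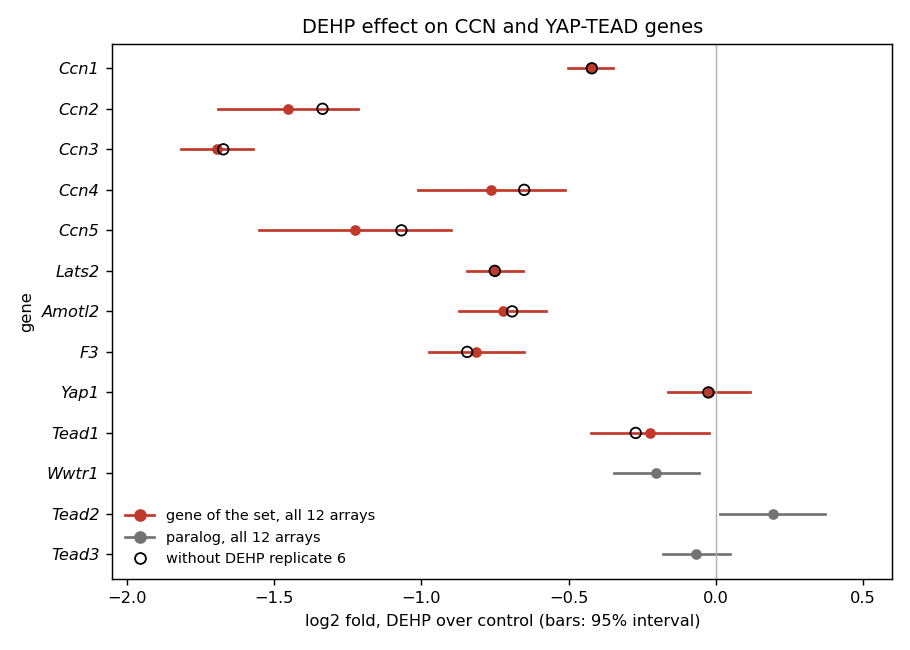
Log2 fold of DEHP over control for the 10 genes (red) and their measured paralogs (grey), with bars for the 95% interval of limma (n = 6 each); open circles give the genes' log2 fold without DEHP replicate 6. The intervals of the 8 genes that fell lie wholly below 0, from Ccn3 at −1.69 to Ccn1 at −0.43. Those of Tead1 and Wwtr1 also lie below 0 and that of Tead2 above 0, though none of these passed after adjustment. The intervals of Yap1 and Tead3 span 0.

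The paralogs of these genes were taken next, and 3 of the 8 in the naming rule had a probe set with 1 gene symbol. Wwtr1 encodes TAZ, the close relative of YAP that also binds TEAD. Its DEHP values all lay below its control values, but it did not pass (log2 fold −0.20 ± 0.07, adjusted p = 0.052). Tead2 (0.19 ± 0.08, adjusted p = 0.14) and Tead3 (−0.07 ± 0.05, adjusted p = 0.46), which encode relatives of TEAD1, did not pass and their groups overlapped.

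Genes of the Hippo pathway and regulators of YAP formed the next list, in which Lats2 and the other members are not counted. Of 27 measured genes among the pathway's kinases, scaffolds, upstream cadherins and coactivators, 4 fell, 2 rose and 21 did not pass. The median log2 fold was 0.04. The share that passed, 22.2%, is near the 24.6% of all genes. Neither of the MST kinase genes at the head of the cascade, Stk3 (0.05 ± 0.11) and Stk4 (0.04 ± 0.08), nor the scaffold Sav1 (−0.02 ± 0.06) passed. The genes that fell were Fat1, a giant atypical cadherin (−0.72 ± 0.05), Ajuba, a LIM protein that binds LATS kinases (−0.74 ± 0.08), Ptpn14, a phosphatase that binds YAP (−0.32 ± 0.05), and Rassf1, a scaffold that binds MST kinases (−0.31 ± 0.05). Ptpn14 is also counted among the YAP-TEAD targets, and the paralogs Wwtr1, Tead2 and Tead3 are counted in this Hippo list as well. Taok2, a kinase upstream of the MST kinases, rose (0.37 ± 0.07), as did Limd1, a LIM protein related to Ajuba (0.22 ± 0.05). Stk3, Stk4, Sav1 and Limd1 were picked with their values in view. With both arrays that stood apart left out, 6 fell and 4 rose, while 4069 of all 14324 genes passed, against 3527 with every array.

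Other genes from a YAP target list known from human cells fell more often than they rose. Apart from the members 11 were measured, with 8 falls, 1 rise and 2 genes that did not pass. The median log2 fold was −0.39, against 10.2% lower, 14.4% higher and a median of −0.02 over all genes. Tgfb2, a ligand of the TGF beta family, had the largest fall (−1.40 ± 0.14). Its values ran from −1.25 to −0.29 under DEHP, and DEHP replicate 6 was the highest of them. Ankrd1, a stress-responsive cardiac nuclear protein, fell by 0.34 ± 0.04 on the log2 scale, the ectonucleotidase gene Nt5e by 0.61 ± 0.08 and Fjx1, a secreted kinase relative, by 0.61 ± 0.08. The gene that rose was Gadd45a, a stress and DNA damage response gene (0.49 ± 0.05), which p53 also switches on.

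The proteins that CCN members bind went both ways. Among 16 measured partners there were 6 falls, 5 rises and 5 genes that did not pass, with a median log2 fold of −0.01. Of all genes, 10.2% were lower and 14.4% higher. Bmp4, a growth factor that CCN2 binds, fell 2.39-fold (−1.25 ± 0.11), and DEHP replicate 6 was its lowest value at −1.16 against −0.63 to −0.48 in the other DEHP arrays. Lrp1, an endocytic receptor that takes up CCN2, rose (0.59 ± 0.04), and so did Vegfa, the vascular growth factor (0.62 ± 0.06), the proteoglycan gene Dcn (0.41 ± 0.05) and the leukocyte integrin chain gene Itgb2 (0.62 ± 0.07). Of the integrin chains that CCN proteins engage on adherent cells, Itgb1 (−0.38 ± 0.05), Itgb5 (−0.77 ± 0.11) and Itga6 (−0.46 ± 0.08) fell and Itga5 did not pass (−0.01 ± 0.11). The choice of these 4 was made with their values in view.

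Around tissue factor, 4 of 11 measured partners fell, 0 rose and 7 did not pass, with a median log2 fold of −0.13. The share that fell was 36.4%, against 10.2% of all genes. Tfpi2, an inhibitor of serine proteases related to the tissue factor pathway inhibitor, fell 2.64-fold (−1.40 ± 0.12). The thrombin receptor gene F2r fell by 0.79 ± 0.13 on the log2 scale, F2rl1, the receptor cleaved by the tissue factor and factor VII complex, by 0.49 ± 0.09, and Procr, the protein C receptor, by 0.24 ± 0.06. Tfpi itself did not pass (0.28 ± 0.10, adjusted p = 0.063).

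**Figure D4:**
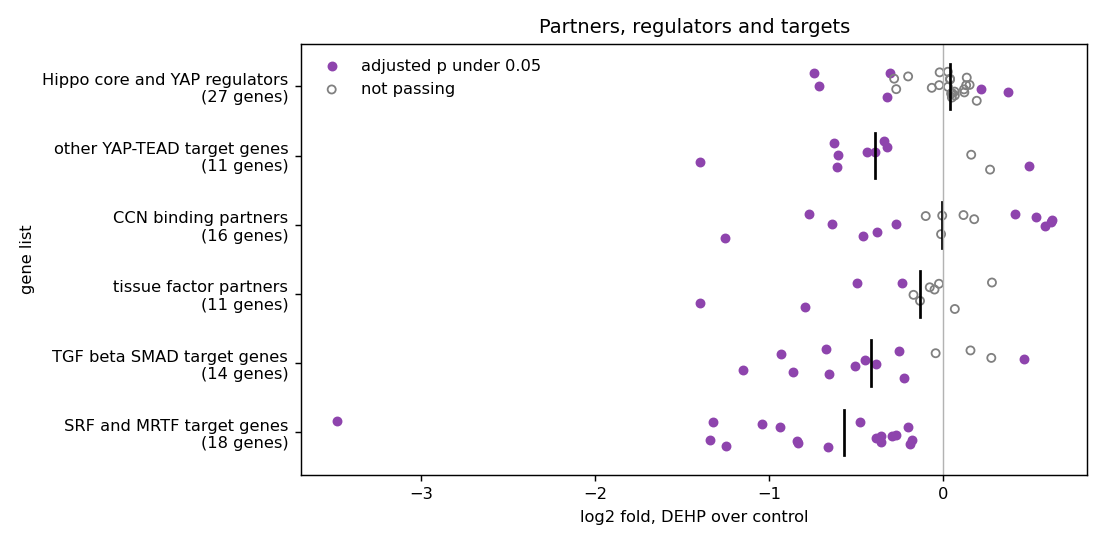
Log2 fold of DEHP over control for the measured genes of 6 lists; filled points passed (limma adjusted p under 0.05), open points did not, and black bars are list medians; points are spread vertically only to be seen. The Hippo list sits around 0 (median 0.04), the YAP-TEAD target list at a median of −0.39, and the SRF list has all 18 genes below 0 (median −0.57).

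Ccn1 and Ccn2 are also switched on by TGF beta through SMAD proteins and by serum response factor, SRF, with its actin-sensing partner MRTF. Most genes listed as targets of these routes fell in the same arrays. Whether either route had a part in the falls of Ccn1 and Ccn2 was not tested. Of 14 measured SMAD targets 10 fell, 1 rose and 3 did not pass (median log2 fold −0.42). For both lists, the shares of all genes were 10.2% lower and 14.4% higher. Ltbp2 (−1.15 ± 0.08), the inhibitory Smad6 (−0.87 ± 0.07) and Smad7 (−0.67 ± 0.07), and Pmepa1, a feedback inhibitor of TGF beta signals (−0.93 ± 0.09), fell, while the matrix protein gene Postn rose (0.47 ± 0.04). All 18 measured SRF and MRTF targets fell (median −0.57). Those with the smallest p were smooth muscle calponin, Cnn1 (−3.49 ± 0.13), the actin crosslinker Flna (−0.94 ± 0.05), the LIM protein gene Fhl1 (−1.34 ± 0.10), the tropomyosin gene Tpm2 (−1.04 ± 0.08) and Tgfb1i1, a focal adhesion protein (−0.84 ± 0.07). Cnn1 and Tagln of the SRF list are also smooth muscle markers, and Col1a1, Col3a1 and Postn of the SMAD list are also fibroblast markers. Of the CCN partners, Dcn is also a fibroblast marker and Itgam a leukocyte marker. Among listed genes with promoter sequence, a CArG box was found in 5 of 14 SRF targets and 0 of 9 YAP-TEAD targets. Over all promoters 1.5% held one, so 0 of 9 does not set the YAP-TEAD list apart. The TEAD letters were found in 5 of those 14 and 2 of those 9, against 12.1% of all promoters.

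Smooth muscle markers fell with the set, while the other marker lists held both rises and falls or, for epicardial markers, rises alone. Beside the counts below, 10.2% of all genes fell and 14.4% rose. All 7 measured smooth muscle and myofibroblast markers fell, with a list mean from −1.11 to −0.58 under DEHP, against 0.58 to 0.77 in controls. The 10 fibroblast markers split into 5 falls, 4 rises and 1 that did not pass, with a list mean from −0.25 to −0.01 under DEHP, against −0.02 to 0.10 in controls. The 10 cardiomyocyte markers gave 3 falls, 3 rises and 4 that did not pass, with means from −0.29 to 0.25 under DEHP, against −0.22 to 0.05 in controls. Of 5 endothelial markers 3 rose and 1 fell, with means from −0.27 to 0.43 under DEHP, against −0.31 to 0.10 in controls. Epicardial and mesothelial markers had 4 rises and 0 falls among 5, with means from 0.11 to 0.24 under DEHP, against −0.16 to −0.01 in controls. Among 6 leukocyte and macrophage markers 2 rose and 2 fell, with means from −0.09 to 0.14 under DEHP, against −0.31 to 0.07 in controls. In RNA from whole cultures, fewer cells of a type and less RNA per cell cannot be told apart. The part of these cells in the falls of the CCN genes was not tested.

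DEHP replicate 6 was the lowest DEHP array in several of these lists and the highest in others. The mean of the 10 CCN and YAP-TEAD genes was −0.60 on that array, against −0.40 to −0.37 on the other DEHP arrays. The SRF and MRTF target mean was −0.71 there, against −0.41 to −0.35, and the smooth muscle marker mean −1.11, against −0.80 to −0.58. Its fibroblast marker mean was −0.25, against −0.08 to −0.01, and its cardiomyocyte marker mean −0.29, against 0.08 to 0.25. Its endothelial marker mean was −0.27, against 0.07 to 0.43. It was the highest DEHP array for the other YAP-TEAD targets, at −0.12 against −0.28 to −0.17. The same held for the epicardial markers, at 0.24 against 0.11 to 0.22, and for the leukocyte markers, at 0.14 against −0.09 to 0.11. On the other DEHP arrays Ccn2, Ccn4 and Ccn5 were still lower than in every control array, and the 8 genes that fell all passed without DEHP replicate 6.

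**Figure D5:**
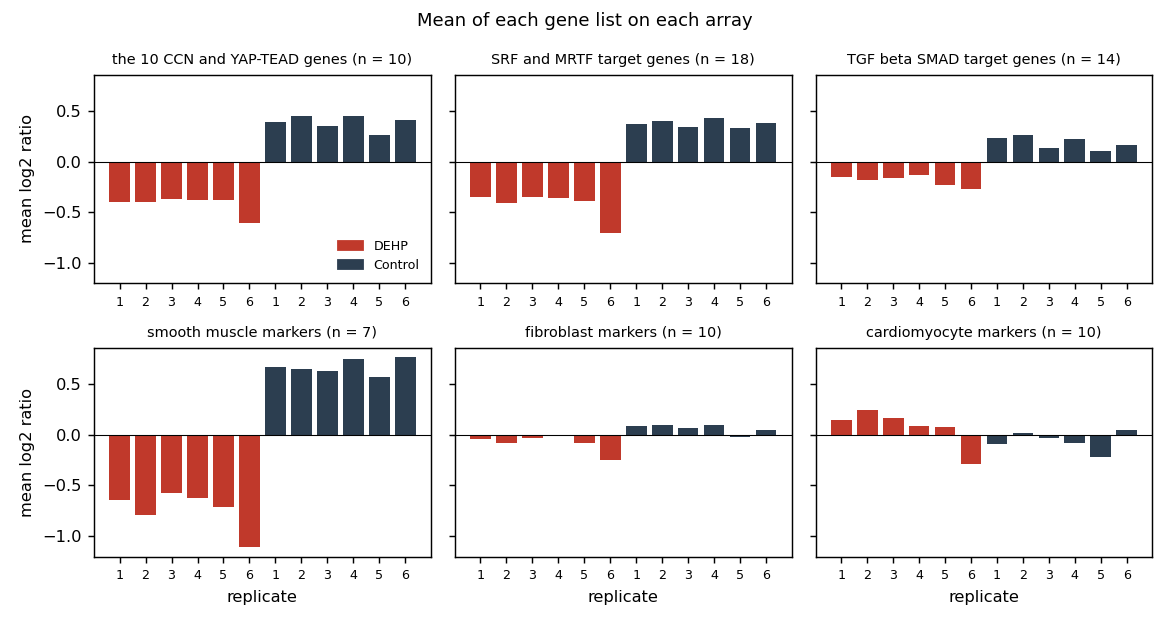
Mean log2 ratio of each gene list on each array, DEHP replicates 1 to 6 (red) left of control replicates 1 to 6 (dark), with the number of genes in each panel title. The 10 CCN and YAP-TEAD genes, SRF targets and smooth muscle markers are below 0 on every DEHP array and lowest on DEHP replicate 6, where the cardiomyocyte mean is −0.29.

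The genes whose profile lay nearest to each member were named by the mean absolute difference in log2 ratio over the 12 arrays, sign kept. Ccn2 was nearest to Pkig, an inhibitor of protein kinase A (0.072), the collagen-binding integrin gene Itga11 (0.078) and the matrix glycoprotein gene Fbln2 (0.081). Ccn5 lay nearest to the smooth muscle gene Tagln (0.073), Pkig (0.074) and the surface glycoprotein gene Thy1 (0.078). For Ccn3 these were Mfap5, a microfibril protein (0.074), Nuak1 (0.077) and Lmcd1 (0.078), and for Ccn4 they were Akap12 (0.074), Rgs2 (0.088) and Olfml2b (0.090). Ccn1 was nearest to integrin-linked kinase, Ilk (0.038), the phosphatase gene Dusp1 (0.042) and the cytolinker gene Plec (0.047). Lats2 lay nearest to the natriuretic peptide gene Nppa (0.056), Adamts19 (0.056) and the sterol enzyme gene Dhcr7 (0.062). The nearest profiles to Amotl2 were Fstl1 (0.076), Cryab (0.078) and Serpinf1 (0.082), and those to F3 were Fads3 (0.072), Bag2 (0.086) and Dnajb4 (0.099). Within the set the closest pair was Lats2 and Amotl2 (0.084). A likeness over 12 arrays in 2 groups depends largely on the size of the DEHP difference. For Ccn2, Ccn4 and Ccn5 the low value on DEHP replicate 6 also enters it. How much each adds was not tested.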

How the data were processed

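Each of the 12 cultures gave RNA for 1 Affymetrix array. RMA was used, per the submitters' processing notes, with its version and the genome build not given in the sources used here. The authors deposited linear ratios, and the median log2 ratio of every probe set over the 12 arrays lay at 0 (largest departure 5.0e-07). The median ratio of an array lay between 0.990 and 1.02. The number of arrays limits the precision. No further normalization was applied to the log2 ratios.

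Of 27342 probe sets, 15097 had 1 gene symbol in the platform annotation, 323 had several and 11922 had none. The RefSeq gene table of GRCr8 held 15067 of their gene identifiers and changed 0 symbols. A gene with several probe sets took the lowest-numbered one. DEHP was compared with control by limma 3.58.1 (R 4.3.3; lmFit, eBayes, two-sided, Benjamini-Hochberg over all probe sets), a step tested on simulated data. The simulated noise was independent between arrays and equally wide on each, so DEHP replicate 6 and control replicate 5 were not imitated. Errors are SE from the limma fit of the deposited data unless given otherwise. Differences between members' log2 folds used an exact permutation test over the arrays within 2 groups of genes (20 pairs), with SE from the spread within groups.

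The members and gene lists were chosen with earlier results of these data known. Named are all members, the 5 genes of each of 6 lists with the smallest p, paralogs, and the 3 nearest profiles of each member whose groups lay apart. The text says where others were added after their values were seen. No probe set with 1 gene symbol was used here for Ccn6, Lats1, Amot, Amotl1 or Tead4, and these are not analysed here. Motifs were searched in RefSeq promoters with Python 3.11.15. Alternatives were quantile normalization, median centring, array weights, robust eBayes, the replicate number as a block, arrays left out, an adjusted p under 0.01, a minimum fold of 1.2 and the mean of a gene's probe sets. Plots used matplotlib 3.10.9.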

Additional observations from a re-analysis of the deposited data

Results flagged for a closer look

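The values below were marked because the lowest or highest array of a group of 6 lay apart from the other 5, by a gap whose share of the group's range passed Dixon's 95% critical value. Of 112 groups of values tested (members, list means and named genes) 20 were marked. Chance alone marks about 1 in 20 independent groups. These groups share arrays and genes, so their count cannot be tested against that rate. DEHP replicate 6 held 14 of these marks. Their causes were not tested.

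Among the members, Ccn2 was −1.35 on DEHP replicate 6, against −0.72 to −0.59 on the other DEHP arrays, and Ccn5 was −1.46, against −0.60 to −0.41. Lats2 was −0.27 on DEHP replicate 4, against −0.39 to −0.35.

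Among list means on DEHP replicate 6, that of the 10 members was −0.60, that of the SRF and MRTF targets −0.71, that of the fibroblast markers −0.25 and that of the cardiomyocyte markers −0.29. The Hippo list mean on control replicate 5 was −0.16, against 0.00 to 0.07 on the other controls.

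Low values on DEHP replicate 6 were those of Bmp4 (−1.16), F2r (−1.02), Pmepa1 (−0.85), Fhl1 (−1.25) and Tgfb1i1 (−0.69). On the same array Tgfb2 was high at −0.29 against −1.25 to −1.05, Ankrd1 at −0.040 against −0.28 to −0.22, and Tfpi2 at −0.32 against −1.10 to −0.82. Control replicate 5 was low in Ajuba, at 0.17 against 0.41 to 0.53, and in Fjx1, at 0.056 against 0.38 to 0.55. Cnn1 was 1.77 on control replicate 4, against 1.59 to 1.63, and Tpm2 was 0.36 on control replicate 3, against 0.50 to 0.58.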

How the results depend on the processing

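The 8 genes that fell kept their direction and stayed under an adjusted limma p of 0.05 in all 19 alternatives run for each, with a highest adjusted p of 0.0023. In 21 settings 8 or 9 members passed, all as lower. Over the same settings from 870 (minimum fold of 1.2) to 5036 (array weights) of all 14324 genes passed. Those passing as lower ran from 445 to 2182 in these settings. Tead1 passed with quantile normalization (log2 fold −0.296), array weights (−0.303), without control replicate 5 (−0.300) and without control replicate 5 and DEHP replicate 6 together (−0.348). Over the single arrays left out it ran from −0.300 to −0.185. Yap1 ran from −0.071 to 0.012 over the single arrays left out, turning above 0 without control replicate 2 (0.012) and without control replicate 4 (0.00066), and passed in no setting. Over all probe sets 5016 passed, against 7614 with array weights, 3238 at an adjusted p under 0.01 and 1182 against a minimum fold of 1.2. Among genes, 3527 passed, against 2339 at an adjusted p under 0.01 and 870 against the minimum fold.

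The number of Hippo genes passing was 10 with quantile normalization, 11 with array weights, 11 with the replicate block and 10 without both arrays, against 6 as reported. Of all 14324 genes 4216, 5036, 4352 and 4069 passed in these settings in turn. Against a minimum fold of 1.2 fewer genes can pass by construction. Then 2 Hippo genes, 4 YAP-TEAD targets, 6 CCN partners, 2 tissue factor partners, 6 SMAD targets and 9 SRF targets passed, and of the markers 2 cardiomyocyte, 3 fibroblast, 1 endothelial, 0 epicardial and 0 leukocyte genes. At an adjusted p under 0.01, 2 epicardial markers passed. The cause of the other changes was not tested. All other counts for the lists and markers, 236 of 252, stayed within 1.5 times.

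The correlation of deviations from the group means between same-numbered arrays ran from 0.072 to 0.77, all above 0. Of the DEHP arrays, 2 of 6 were closest to the control array of their own number. The main comparison did not pair the cultures by number, and whether the numbers pair them was not tested. With the replicate block all 8 members passed. Sign flips within replicate numbers gave 0 passing pair differences of 20, against 15 as reported. The smallest p that flips allow is 0.031, or 0.052 after adjustment, and 12 pairs had an unadjusted p under 0.05. Lats2 minus Amotl2 changed sign without control replicate 6 (0.00103) and without DEHP replicate 2 (0.00766), in a range of −0.059 to 0.0077. Over the single arrays left out Amotl2 minus F3 ran from 0.030 to 0.15 and Lats2 minus F3 from 0.016 to 0.11.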
